A study of Mus musculus with 20 samples.

Results

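The NRF, BACH and small MAF genes are 8 mouse genes, chosen by symbol: Nfe2l1, Nfe2l2, Keap1, Bach1, Bach2, Maff, Mafg and Mafk. All 8 were found among 21631 protein-coding genes of chromosomes 1 to 19 and X. ATF4 peaks were collected at each gene's ends, inside the gene and within 50 kb of it. The cells were C2C12, a mouse myoblast line labelled wild type, treated for 6 h with 100 nM thapsigargin, which stresses the endoplasmic reticulum (ER) by blocking its calcium pump, or for 6 h with DMSO, the solvent. ATF4 was mapped by CUT&Tag, in which an antibody directs a transposase to the DNA around a bound protein, with 2 samples per treatment among 20 in the series. Only 1 ATF4 peak list per treatment was used here, with 8619 peaks in thapsigargin and 803 in DMSO. There is therefore no replicate error and no test, the read depth is unknown, and a longer list may come from deeper reads or a looser threshold as well as from more binding. The label C2C12 could not be checked from these lists, since a transcription factor's peaks do not measure expression. Of 5 myoblast genes, Myod1, Myf5, Des, Cdh15 and Pax7, 0 had a peak at a gene end (peak centre at most 1 kb away) in either list. Among all protein-coding genes the shares were 15.1% in thapsigargin and 1.29% in DMSO. Inside or within 50 kb, 3 of the 5 had a thapsigargin peak (51.1% of all genes) and 1 a DMSO peak (8.01%).

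The NRF and BACH proteins are bZIP transcription factors of the cap'n'collar (CNC) family. They bind antioxidant response elements as heterodimers with the small MAF proteins MAFF, MAFG and MAFK, which carry a bZIP domain but no activation domain of their own. NRF2, made from Nfe2l2, activates antioxidant and detoxification genes and is held low by KEAP1, an adaptor that hands it to a CUL3 ubiquitin ligase. NRF1, made from Nfe2l1 and unrelated to nuclear respiratory factor 1, is anchored in the ER membrane and, once processed, drives proteasome genes. BACH1 and BACH2 compete for the same elements as repressors, and BACH1 is released from DNA and degraded when heme binds it. ATF4 is itself a bZIP factor, the main transcriptional effector of the integrated stress response, and binds composite C/EBP-ATF elements together with C/EBP partners.

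The sequences below are examples from members with and without a peak at the start. They come from the starts of Nfe2l1 and Nfe2l2, which lay wholly inside thapsigargin peaks, and from an inner start of Maff. The Maff start holds a cAMP response element and had no peak. Whether the letters bear on where peaks lay was not tested. The first pair gives the 250 bases before the outermost start, and the Maff sequence gives 30 bases around the element. They are RefSeq sequences of GRCm38.p6, to which mm10 corresponds, read 5′ to 3′ along the gene. Capitals mark a match to 1 of 6 searched motifs.

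Nfe2l1, minus strand, chr11:96829969-96830218: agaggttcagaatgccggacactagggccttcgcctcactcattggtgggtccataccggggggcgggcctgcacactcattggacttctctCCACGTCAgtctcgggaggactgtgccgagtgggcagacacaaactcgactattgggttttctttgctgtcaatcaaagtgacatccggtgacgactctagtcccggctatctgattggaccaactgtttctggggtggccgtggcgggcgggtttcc

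Nfe2l2, minus strand, chr2:75704664-75704913: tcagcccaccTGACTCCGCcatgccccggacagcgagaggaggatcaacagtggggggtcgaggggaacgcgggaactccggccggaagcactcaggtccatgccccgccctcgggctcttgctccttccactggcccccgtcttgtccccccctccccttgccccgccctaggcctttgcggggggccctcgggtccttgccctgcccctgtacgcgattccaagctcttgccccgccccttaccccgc

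Maff, plus strand, chr15:79347480-79347509: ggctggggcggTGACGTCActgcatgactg

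An end of a gene counted as marked when the centre of a peak was at most 1 kb away. In thapsigargin 3 of the 8 genes (37.5%) were marked at an end, namely Nfe2l1, Nfe2l2 and Bach1, against 15.1% of all protein-coding genes. In DMSO 1 of 8 (12.5%) was marked, Nfe2l1, against 1.29% of all genes. Nfe2l1 was thus the member with a peak at its end in both lists, as were 1.27% of all genes. All of these peaks lay at the 5′ end of the gene, and the 3′ ends had none. How often end peaks of all genes lay at the 5′ end was not counted, so this is not a trait shown for the members. With so few genes and 1 list per treatment, the counts describe these lists and nothing more.

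Inside the gene span, 4 of 8 members had a thapsigargin peak centre (Nfe2l1, Nfe2l2, Bach1 and Bach2), against 17.8% of all protein-coding genes, and 2 of 8 had a DMSO peak centre (Nfe2l1 and Nfe2l2), against 2.02%. With 50 kb added on each side, 6 of 8 had a thapsigargin peak, against 51.1% of all genes, and 2 of 8 had a DMSO peak, against 8.01%. Mafg and Mafk had no peak within 50 kb in either list. In this reach lay 21 thapsigargin peaks, of which 4 (19.05%) overlapped a DMSO peak by at least 1 bp, against 9.25% of the whole thapsigargin list. All 4 DMSO peaks in the same reach overlapped a thapsigargin peak. In the whole lists, 797 thapsigargin peaks overlapped a peak of the DMSO list, which holds 803, so such overlap is no trait of these genes. The share of all DMSO peaks that overlapped was not computed. The shared sites were at Nfe2l1 and around Nfe2l2. Only 1 of the 4, inside Nfe2l2, had its centres within 100 bp of each other. Among peaks wider than the median of each list, gene ends of 1 member (Nfe2l2) in thapsigargin and of 0 members in DMSO were marked. The start peaks of Nfe2l1 and Bach1 were narrower than the median. For the match of centres and for the wider peaks, the shares over the whole lists were not computed.

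**Figure D1:**
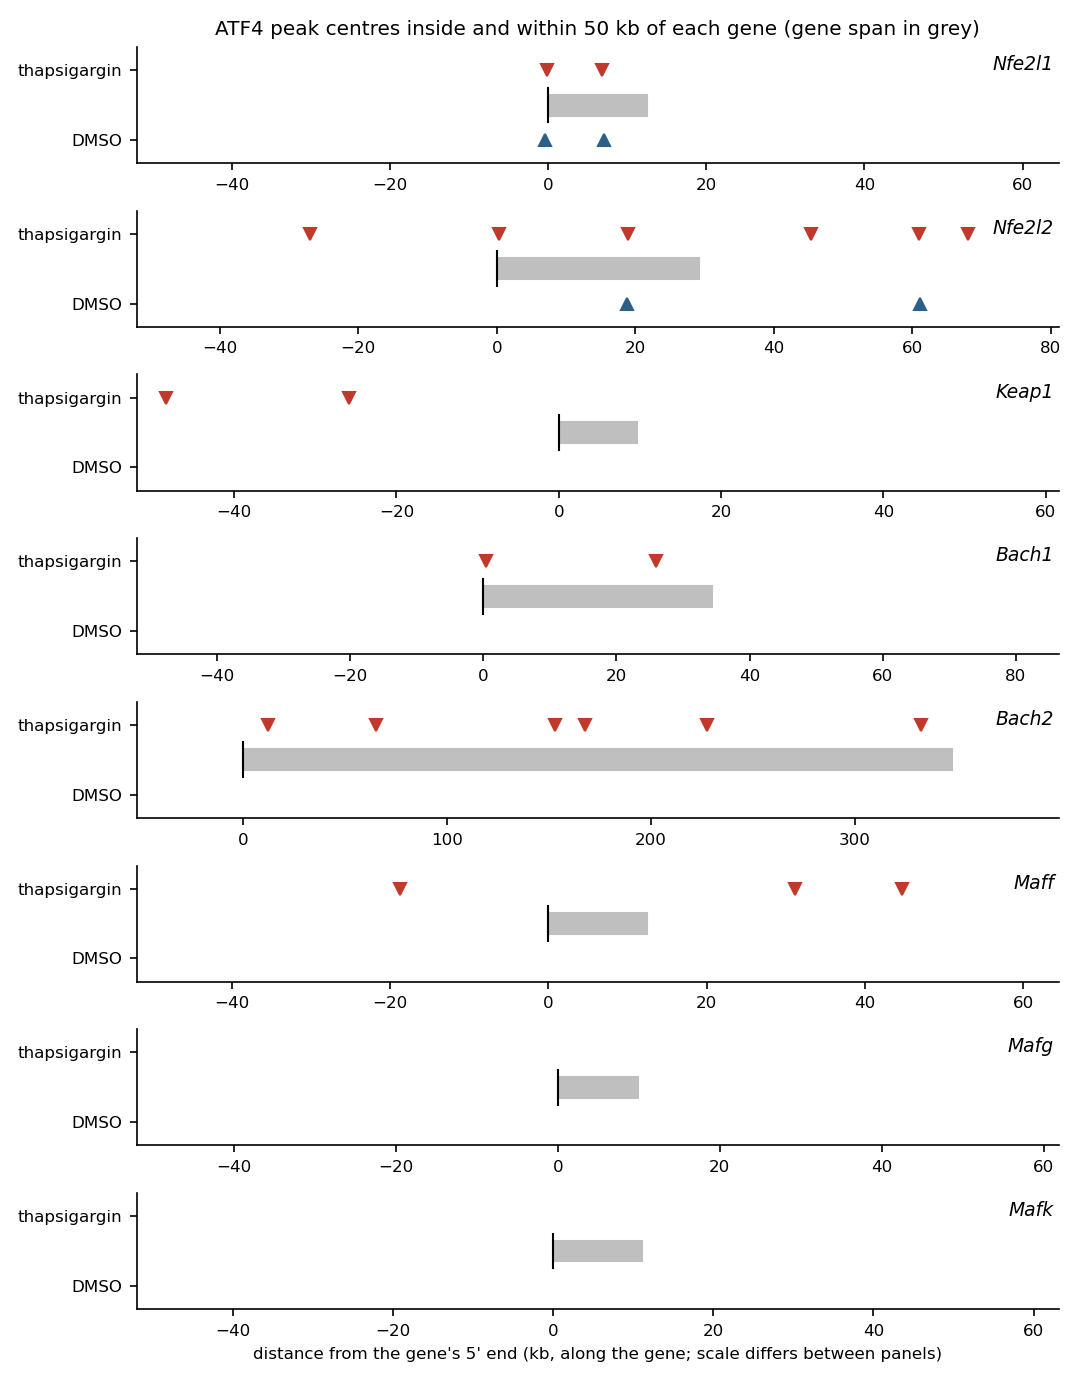
Centres of ATF4 peaks in thapsigargin (red, above) and DMSO (blue, below) along each gene and 50 kb to either side, in kb from the gene's 5′ end, with the gene span in grey and a scale of its own in each panel. Of 21 thapsigargin peaks, 11 lie inside a member, the DMSO peaks are found at Nfe2l1 and Nfe2l2, and the panels of Mafg and Mafk are empty.

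Nfe2l1, on chromosome 11 from 96817414 to 96829968 on the minus strand, is 12.6 kb long and had 2 sites, both present in both lists. The site at the start was 942 bp wide in thapsigargin (96829590 to 96830531) and 331 bp in DMSO (96830170 to 96830500). The thapsigargin peak was centred 92.5 bp upstream of the 5′ end and covered it. The DMSO peak was centred 367 bp upstream, lay wholly inside the thapsigargin peak and ended 202 bp before the 5′ end. It was among the narrowest of its list, at rank 791 of 803 by width, whereas the thapsigargin peak stood at percentile 39.6 of its own list.

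The second Nfe2l1 site lay inside the gene and was the wider one in both lists. It measured 1561 bp in thapsigargin (96822314 to 96823874, percentile 88.0 by width) and 1314 bp in DMSO (96822231 to 96823544, percentile 88.8). The centres were 207 bp apart and the peaks shared 1231 bp, with the DMSO peak reaching slightly beyond the thapsigargin peak on the side of the 3′ end. RefSeq gives 5 starts for Nfe2l1, the outermost at 96829968, one close to it at 96829502, and 3 further inside at 96823931, 96824013 and 96824127. The thapsigargin peak began 57 bp downstream of the nearest of these starts and the DMSO peak 387 bp downstream, so neither covered it. In both lists the inner site was thus wider than the site at the outermost start, by 1561 bp against 942 bp in thapsigargin and 1314 bp against 331 bp in DMSO. Width is not a measure of occupancy, and the lists give no height.

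**Figure D2:**
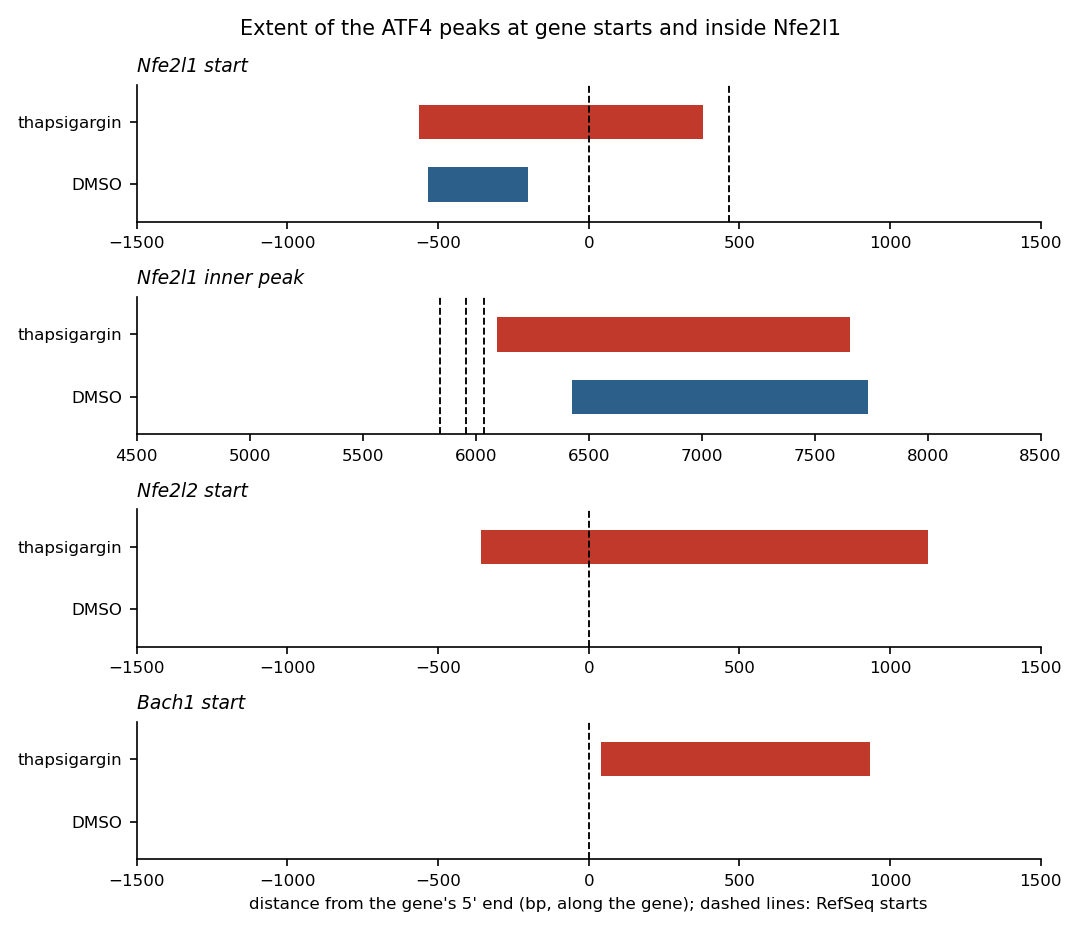
Extent of the peaks, to scale, in thapsigargin (red, above) and DMSO (blue, below) at the starts of Nfe2l1, Nfe2l2 and Bach1 and at the inner Nfe2l1 site, in bp from the gene's 5′ end along the gene; dashed lines are RefSeq starts. The thapsigargin peaks cover the outermost start of Nfe2l1 and the start of Nfe2l2, the DMSO peak at Nfe2l1 ends 202 bp before the start, and the Bach1 peak begins 42 bp after it.

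Nfe2l2, on chromosome 2 from 75675513 to 75704663 on the minus strand, had 6 thapsigargin peaks and 2 DMSO peaks inside it or within 50 kb. Its start carried a thapsigargin peak of 1485 bp (75703538 to 75705022, percentile 84.9 by width), centred 383 bp downstream of the 5′ end and running from position -359 to 1125 bp relative to it. No DMSO peak overlapped this start peak, and the DMSO peak nearest to the 5′ end was centred 18.9 kb away, inside the gene. That inner site was shared, with 1267 bp in thapsigargin (75685095 to 75686361) and 933 bp in DMSO (75685328 to 75686260), the DMSO peak lying wholly inside the other and the centres 66 bp apart. The start and the inner site of Nfe2l2 therefore differed, the start being marked in thapsigargin alone and the inner site in both lists.

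The other 4 thapsigargin peaks around Nfe2l2 lay outside the gene. The widest, 2056 bp and at percentile 97.8, was centred 38.9 kb beyond the 3′ end and 2.74 kb from an end of Gm50595, a predicted gene. A shared peak 31.8 kb beyond the 3′ end measured 1420 bp in thapsigargin (75642961 to 75644380) and 1156 bp in DMSO (75642978 to 75644133). In thapsigargin it was centred 9.75 kb from an end of Gm50595, nearer than to Nfe2l2. A thapsigargin peak 16.3 kb beyond the 3′ end was centred 152 bp from an end of Hnrnpa3, which encodes an RNA-binding protein, and so marks that gene's end. Upstream, a peak of 1026 bp was centred 26.98 kb from the 5′ end of Nfe2l2, with no nearer end of a protein-coding gene.

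Keap1, on chromosome 9 from 21229730 to 21239332, had no peak at its ends or inside in either list. Within 50 kb there were 2 thapsigargin peaks and no DMSO peak, both upstream and both at the ends of other genes. The nearer one, 793 bp wide and 25.8 kb from Keap1, was centred 78 bp from an end of Atg4d, an autophagy protease gene. The farther one, 527 bp wide and 48.4 kb away, was centred 224 bp from an end of Kri1. The nearest DMSO peak was 214 kb from Keap1.

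The BACH genes had thapsigargin peaks but no DMSO peak within 50 kb. Bach1, on chromosome 16 from 87698954 to 87733346 on the plus strand, had a start peak of 891 bp in thapsigargin (87698996 to 87699886, percentile 34.1 by width), centred 487 bp downstream of the 5′ end and beginning 42 bp after it. A second thapsigargin peak of 1082 bp lay inside Bach1 (87724321 to 87725402), 25.9 kb from the 5′ end and 8.48 kb from the 3′ end. The nearest DMSO peak to Bach1 was 1476 kb away.

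Bach2, on chromosome 4 from 32238413 to 32586109 on the plus strand, spans 348 kb and had 6 thapsigargin peaks inside it, more than any other member, and none at an end. Their centres were 12.3, 65.2, 153, 168, 227 and 332 kb from the 5′ end, and the gaps between neighbouring centres ran from 14.4 to 105 kb. All 6 were wider than the median of the thapsigargin list, from 1088 to 2767 bp. Among the 557 protein-coding genes of at least 300 kb, Bach2 included, the median was 0 thapsigargin peaks inside, 298 had none, and 13 (2.33%), Bach2 among them, had 6 or more. The part of gene length in the count at Bach2 was not tested. The widest of the Bach2 peaks (32569368 to 32572134) was the 10th widest of the thapsigargin list. It covered the 5′ end, at 32571662, of Bach2os, a long non-coding RNA gene on the minus strand inside Bach2, with its centre 911 bp from it. The 1 RefSeq start listed for Bach2 in the promoter table, at 32417435, is an inner one, and the nearest peak ended 10974 bp upstream of it.

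**Figure D3:**
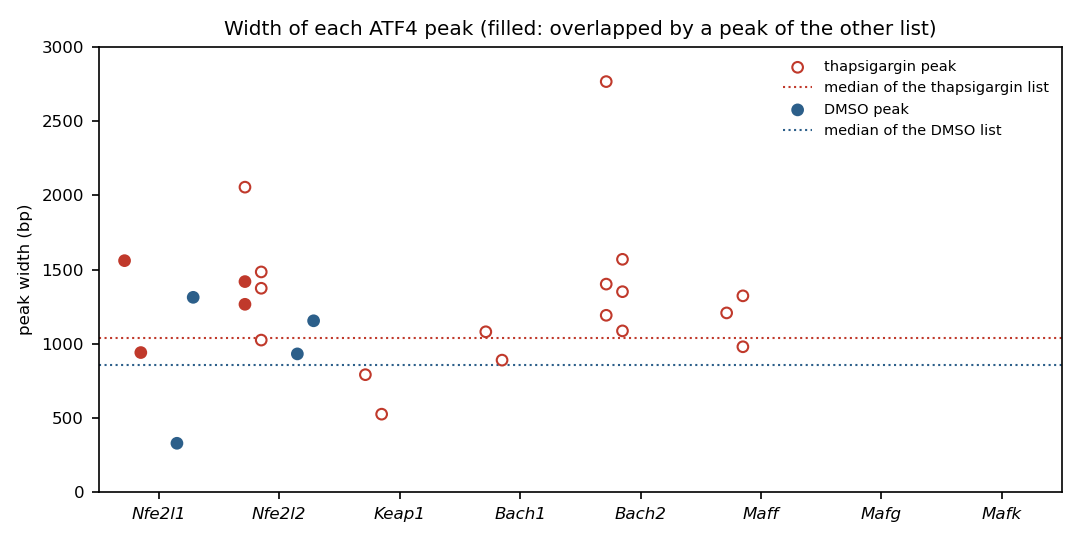
Width in bp of each ATF4 peak inside or within 50 kb of each gene, in thapsigargin (red, left) and DMSO (blue, right); filled points overlap a peak of the other list, and dotted lines are the medians of the whole lists, 1037 bp (thapsigargin) and 856 bp (DMSO). The peaks at Nfe2l1 and around Nfe2l2 include the filled ones, and the widest point, 2767 bp, is the Bach2 peak over the Bach2os start.

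The small MAF genes had no peak at an end or inside in either list. Maff, on chromosome 15 from 79346621 to 79359078, had 3 thapsigargin peaks within 50 kb and none in DMSO. The nearest, 1324 bp wide and 18.7 kb upstream, was centred 476 bp from an end of Pla2g6, a phospholipase gene. The others lay 18.8 and 32.2 kb downstream of Maff, inside Tmem184b, and the nearer of them was centred 858 bp from the 5′ end of the long non-coding RNA gene Gm52190. Mafg, on chromosome 11 from 120625117 to 120634955, had its nearest peak 158 kb away in thapsigargin, at an end of Arl16, and 1156 kb away in DMSO. Mafk, on chromosome 5 from 139791536 to 139802653, had its nearest peak 519 kb away in thapsigargin, at an end of Nudt1, and 902 kb away in DMSO.

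The 4 shared sites lay at Nfe2l1 and around Nfe2l2 only. Peaks of the whole thapsigargin list were generally wider, with a median of 1037 bp against 856 bp in DMSO. The shared sites were also wider in thapsigargin, by a factor of 1.36 inside Nfe2l2, 1.23 beyond its 3′ end and 1.19 inside Nfe2l1. At the Nfe2l1 start the factor was 2.85, with a DMSO peak at rank 791 of 803 by width. The DMSO peak was contained in the thapsigargin peak at all 4 sites except the inner Nfe2l1 site. Of the 21 thapsigargin peaks, 15 were wider than the median of their list. Of the 10 thapsigargin peaks outside the members, 2 had a member as the nearest protein-coding gene end, the start peak of Nfe2l1 and the peak upstream of Nfe2l2, so 8 lay nearer to another gene, at whose own end some of them were centred.

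The letters of the start regions were compared with 6 motifs on both strands: TGATGCAA (C/EBP-ATF composite), TGATGNAA (the same with a free base), TGACGTCA (cAMP response element), TGACTCA (AP-1 site), TGACNNNGC (core of the antioxidant response element) and TGACGTGG (core of an unfolded protein response element). TGATGNAA includes every TGATGCAA, and the others can overlap each other in part. RefSeq windows of 300 bases, from 250 before to 50 after a start, were given for all 8 genes, 14 windows in all. A thapsigargin peak overlapped 4 of the windows, 2 at Nfe2l1 and 1 each at Nfe2l2 and Bach1, against 3604 of all 32619 windows. A DMSO peak overlapped 1, at Nfe2l1, and the share of all windows was not computed for DMSO. The 14 windows are not separate places, since some genes have several and the inner Nfe2l1 windows overlap each other.

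The outermost Nfe2l1 window held TGACGTGG, read on the other strand as CCACGTCA, from 158 to 151 bases before the start, in the sequence shown above. The match lay inside the thapsigargin peak and 44 bp outside the DMSO peak. This motif was in 0.681% of 32619 RefSeq promoter windows and in 1.19% of the 3604 windows overlapped by a thapsigargin peak. The Nfe2l2 window held TGACTCCGC, a match to TGACNNNGC, from 240 to 232 bases before the start and inside the thapsigargin peak. That core is common, in 12.4% of all windows and 17.0% of the overlapped ones. The Bach1 and Keap1 windows and the Bach2 window held no match. The Bach1 start peak overlapped its window by only 8 bp, so most of that peak was not searched.

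Matches also stood where no peak was found. The inner Maff start at 79347520 had TGACGTCA from 29 to 22 bases before it, a motif in 1.80% of all windows and 4.69% of those overlapped by a thapsigargin peak, and the nearest thapsigargin peak was 19.6 kb from this start. The outermost Maff window and the Mafg and Mafk windows each held a match to TGACNNNGC. The Mafg window belongs to an inner start, at 120633547, so the gene's 5′ end, at 120634955, was not searched. TGATGCAA, found in 0.880% of all windows, TGATGNAA, in 3.87%, and TGACTCA, in 5.22%, were in none of the 14 windows. Among windows overlapped by a thapsigargin peak their shares were 1.69%, 4.19% and 3.94%, in the same order. With shares this low, their absence from 14 windows says little. A match is a run of letters in the window and no measure of binding, and the sequence of the peaks outside these windows was not used here.

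The other genes of the pathway were counted in 4 lists. Of 23 genes known as NRF2 targets, 7 (30.4%) had a thapsigargin peak at a gene end, against 15.1% of all protein-coding genes. In DMSO 1 (4.35%) had such a peak, against 1.29% of all genes, namely Hmox1, which encodes heme oxygenase 1. The widest thapsigargin peaks were at Gclm, a subunit gene of glutamate-cysteine ligase (1710 bp), Txn1, thioredoxin (1592 bp), Hmox1 (1373 bp in thapsigargin and 847 bp in DMSO), Srxn1, sulfiredoxin (1137 bp), Gstm1, a glutathione transferase (1005 bp), and Prdx1, a peroxiredoxin (721 bp).

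Of 13 genes for the turnover and processing of NRF1 and NRF2, 8 (61.5%) had a thapsigargin peak at a gene end, against 15.1% of all protein-coding genes. In DMSO 1 (7.69%) had such a peak, against 1.29% of all genes. The widest thapsigargin peaks were at Gsk3b, a kinase that marks NRF2 for degradation (1852 bp), Csnk2b (1568 bp in thapsigargin and 1167 bp in DMSO), which encodes the regulatory subunit of casein kinase 2, and Vcp, the ATPase that extracts NRF1 from the ER membrane (1302 bp). Fbxw7, a ubiquitin ligase adaptor (1130 bp), Sqstm1, the autophagy receptor p62 that binds KEAP1 (1116 bp), and Rbx1, the RING subunit of CUL3 ligases (1095 bp), followed. The Csnk2b peak also lay within 1 kb of an end of Gpank1, so it cannot be assigned to either gene. The same holds for the counted Ngly1 peak (589 bp), which also lay within 1 kb of an end of Oxsm. Cul3 itself had its nearest thapsigargin peak 22.2 kb away.

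Of 5 other CNC and MAF factors, Nfe2, Nfe2l3, Maf, Mafa and Nrl, 1 had a thapsigargin peak at a gene end, Mafa, with 506 bp, and 0 had a DMSO peak. Of 32 proteasome genes, the class that NRF1 drives, 7 (21.9%) had a thapsigargin peak at a gene end and 1 (3.12%) a DMSO peak. The widest were at Psmb3 (1398 bp, shared with an end of Pcgf2), Psmd3 (1098 bp), Psmc6 (1077 bp), Psmb2 (1068 bp in thapsigargin and 645 bp in DMSO), Psma5 (844 bp) and Psmd11 (790 bp). The counted thapsigargin peak at Psma2 (682 bp) also lay within 1 kb of an end of Mrpl32. Against 15.1% of all genes in thapsigargin and 1.29% in DMSO, the proteasome genes and the other CNC and MAF factors lay nearest to the background.

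**Figure D4:**
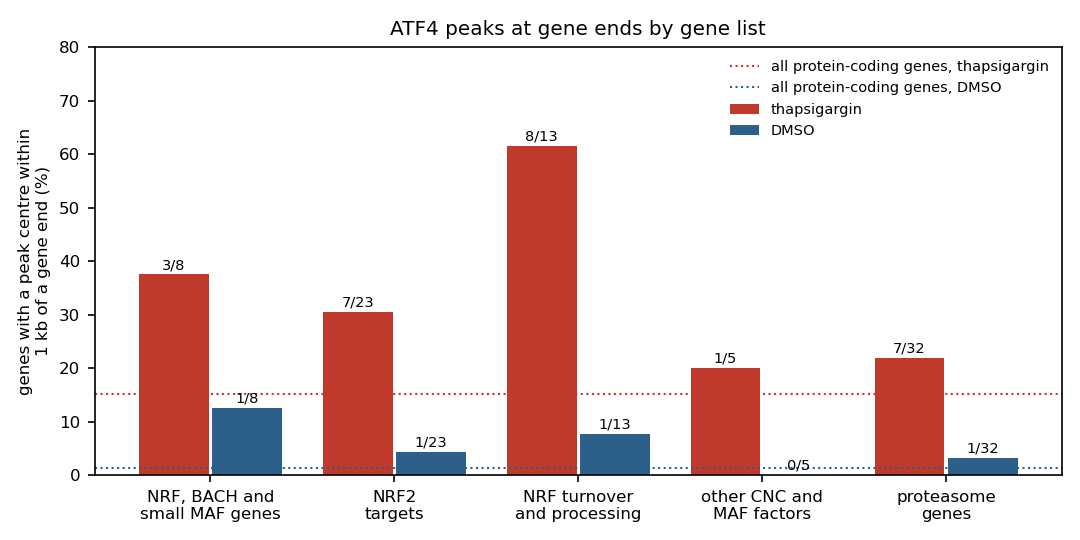
Share of genes (%) marked by an ATF4 peak at a gene end (centre at most 1 kb away) in thapsigargin (red, left) and DMSO (blue, right), with counts above the bars; dotted lines are the shares of all protein-coding genes, 15.1% in thapsigargin and 1.29% in DMSO. The thapsigargin share is 37.5% for the NRF, BACH and small MAF genes, and the widest gap from the background is at the turnover and processing genes, 61.5%.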

How the data were processed

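Per the submitters' processing notes, MACS2 2.2.7.1, Bowtie2 and Trim Galore 0.6.10 were used with mm10. Their roles and settings, any control, the peak threshold and the handling of replicates: not given in the sources used here. The deposited lists hold chromosome, start and end of each ATF4 peak, without height or score. Of 10 groups, 8 were not used here. Nothing in the labels says whether replicates came from separate cultures.

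Genes, strands and starts came from RefSeq tables of GRCm38.p6. A gene end counted as marked when a peak centre lay within 1 kb, and peaks as shared with at least 1 bp in common. Coordinates count from 1; exons and introns were not told apart. Motifs were searched in RefSeq promoter windows. Counting was tested on simulated data. All 8 members were named, and up to 6 genes per list by width of their thapsigargin peak, with the gene nearest to a member's peak. Ngly1 and Psma2 were named as well, because their counted peaks also lay at another gene's end. The members and lists were chosen with earlier results of these data known. A list gene is not reported here. Alternatives were other windows, reaches, overlap rules, merged peaks, wider peaks and gene types. Python 3.11.15, numpy 2.4.6, pandas 2.3.3 and matplotlib 3.10.9 were used.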

Additional observations from a re-analysis of the deposited data

How the results depend on the processing

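No paired analysis was possible because each treatment has 1 list, and no replicate could be left out for the same reason. Of 55 alternative values, 49 stayed within 1.5 times the count reported. These include counts of 0 set against 0, where a narrower window could give only 0, and several counts of 1 gene. The tally is therefore no measure of how stable the counts are. Among peaks wider than the median of each list, a gene end was marked at 1 member in thapsigargin and 0 in DMSO, in place of 3 and 1. With a match of centres to 100 bp, 1 of 21 thapsigargin peaks was shared, in place of 4. Among the 803 widest thapsigargin peaks, 2 lay at the members and 0 were shared. The shares of all genes or peaks under these settings were not computed, so whether the members moved more than the whole lists is unknown. With a window of 500 bp, 0 turnover and processing genes had a DMSO peak, in place of 1, against 0.962% of all protein-coding genes. With 5 kb, 2 proteasome genes had one, in place of 1, against 2.03% of all genes. Each of these settings admits fewer or more matches by construction. The count of any RefSeq start was chosen after seeing the data. Peak number and width depend on a read depth and threshold that are unknown.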
